A study of Mus musculus with 20 samples.

Results

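The data described here are 8 small RNA libraries of mouse bone marrow-derived macrophages, out of 20 libraries in the series. They were chosen by their titles: 6 libraries came from macrophages given a lipoprotein (oxLDL, eLDL or LDL) and 2 from unstimulated macrophages. Knockout macrophages came from miR-155-/- mice (B6.Cg-Mir155tm1.1Rsky/J) and wild-type macrophages from C57BL/6 mice, and each genotype gave 1 library with oxLDL, 1 with eLDL, 1 with LDL and 1 unstimulated. The mice were 8 to 12 weeks old, and all cultures were grown from flushed femur and tibia marrow in medium with fetal calf serum and the supernatant of an M-CSF hybridoma. LDL is low-density lipoprotein and oxLDL is, by common usage, its oxidised form. The labels do not spell out eLDL. The labels give neither a dose nor a time for the lipoproteins, and do not say whether each library had its own mouse or culture. Each condition is 1 library, so p-values measure only the spread between these libraries. The other 12 libraries, 10 of dendritic cells grown with GM-CSF and 2 of macrophages with LPS, serve only for comparison.

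Macrophages take up modified LDL through scavenger receptors and become lipid-laden foam cells, the hallmark of early atherosclerotic plaques. miRNAs are RNAs of about the length of a siRNA that are cut from a hairpin and guide Argonaute to target mRNAs, mainly through the seed at bases 2 to 8. A hairpin yields a 5p and a 3p arm, of which the guide is usually kept and the passenger is mostly degraded. In macrophages miR-155 and miR-146a are known for raising and for restraining inflammatory signalling, and miR-33 for repressing the cholesterol exporter Abca1.

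Reads of 18 to 26 nt that matched an arm of an annotated hairpin exactly were counted, and levels are given as CPM, the count over all miRNA reads of the library on the usual per-M scale. The 8 libraries held 13.5 to 22.8 M reads, of which 42.35% to 53.26% were miRNA reads. A count of 3, the upper limit that a count of 0 allows, was 0.255 to 0.466 CPM, for counting error only. The miRNAs with at least 5 CPM in at least 2 of the 8 libraries were tested, 340 in all. Reads with an undetermined base made up 6.841% to 7.178% of each of the 8 libraries, against 0.125% to 0.133% in dendritic cells, so the macrophage and dendritic cell libraries differ technically as well. The general blood-cell miRNAs were present, with miR-142a-5p at 25240 to 29940 CPM with lipoprotein against 18340 to 25040 CPM unstimulated, and miR-223-3p at 1475 to 2764 CPM against 1917 to 2584 CPM. Neither tells macrophages from dendritic cells.

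Lipoprotein was compared with no stimulus in 1 fit with genotype as a block (edgeR's quasi-likelihood test, called at a Benjamini-Hochberg adjusted p under 0.05). Of the 340 miRNAs tested, 65 were called (19.1%), 43 higher (12.6%) and 22 lower (6.47%) with lipoprotein, and 110 had an unadjusted p under 0.05. miR-155 (both arms), miR-455 (both arms), miR-383-5p, miR-193b-3p, miR-187-3p and miR-181c (both arms) rose, among others. The clustered miR-99b, let-7e and miR-125a, the hypoxia-linked miR-210-3p, both arms of miR-21a and the passenger arm miR-181a-1-3p fell. The change was over 2-fold for 16 of those called higher and for 7 of those called lower. Changes below are log2 ratios of lipoprotein over unstimulated with their standard error. The split between higher and lower depended on scaling: with upper-quartile scaling it was 27 higher and 42 lower, with total miRNA reads 52 higher and 18 lower, with DESeq2 size factors 30 higher and 25 lower. The median change of all tested miRNAs was 0.07 with the scaling used here (TMM), −0.11 with the upper quartile and 0.17 with total reads. Of the 65, 45 kept their call under all 3 other scalings.

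**Figure D1:**
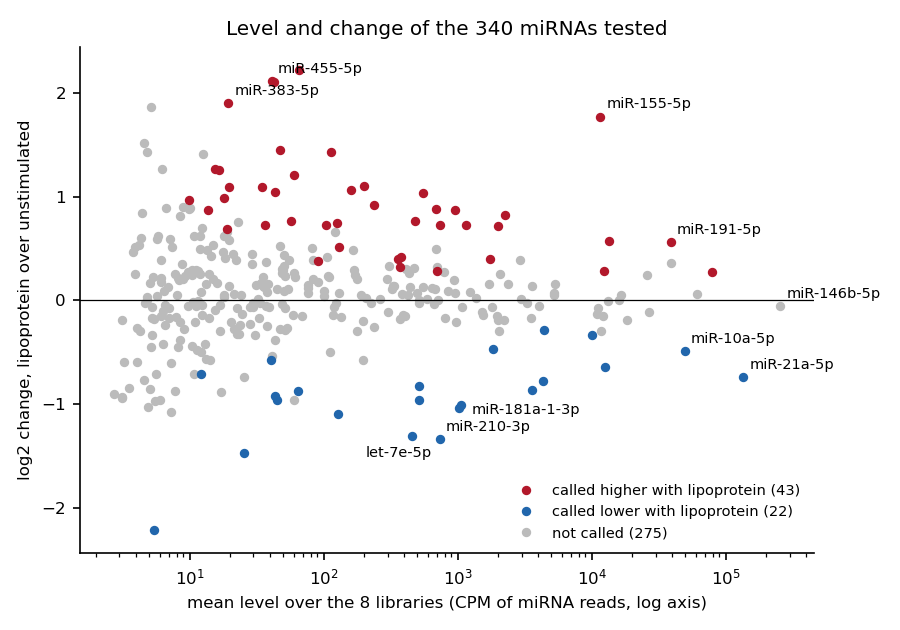
Each point is 1 of the 340 miRNAs tested, with its mean CPM over the 8 libraries (log axis) against its fitted log2 change, lipoprotein over unstimulated. The 43 called higher and the 22 called lower run from rare miRNAs to the most abundant ones, with miR-155-5p the abundant miRNA farthest above 0 and miR-21a-5p the most abundant one called lower.

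The wild-type unstimulated library weighs on many of these calls. Without it, 33 miRNAs were called (18 higher, 15 lower), 31 of them among the 65. Without the knockout unstimulated library, 62 were called. All 8 fits that leave out 1 library called 28 of the 65. In 64 of the 65 miRNAs all 6 lipoprotein libraries differed from the unstimulated library of their genotype in the fitted direction, which also held for 43.2% of all tested miRNAs in 1 direction or the other. The exception was miR-155-3p, which had no reads in knockouts. The wild-type ratio was farther from 1 than the knockout ratio for 37 of the 42 called higher with both ratios but for 9 of the 22 called lower, and for 57.7% of the tested ones.

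The calls were also set beside levels in cells that the comparison did not use. Of the 22 miRNAs called lower with lipoprotein, 18 (81.8%) had a higher mean level in the 10 dendritic cell libraries than in the 2 LPS macrophage libraries, as did 9 of the 43 called higher (20.9%) and 170 of the 340 tested. Whether the wild-type unstimulated library lay nearest to the dendritic cells depended on the measure, both chosen after the data were seen. Its root mean square log2 distance to their mean was 1.73, the lowest of the 10 macrophage libraries, but its median distance was 0.784, against 0.737 for the knockout unstimulated and 0.762 for the wild-type LDL library. The part of a dendritic cell-like or less differentiated share of cells in the unstimulated cultures was not tested. The LPS macrophages were stimulated too, so the count above cannot tell such a share from a response common to LPS and lipoprotein. Fewer cells of a type and less RNA per cell cannot be told apart in such libraries. The stromal marker list summed to 4.78 to 125 CPM with lipoprotein, against 0.849 CPM in the knockout and 283 CPM in the wild-type unstimulated library. It rested on miR-143-3p, at 118.6, 36.52 and 24.45 CPM in wild-type macrophages with oxLDL, eLDL and LDL and 267.4 CPM unstimulated. Of its 6 members 2 were tested and neither was called, beside 19.1% called of all tested miRNAs. The part of the stromal list in the results was not tested. The erythroid list summed to 414 to 600 CPM with lipoprotein and 445 to 461 CPM unstimulated, with its defining miR-451a at 0.117 to 1.95 CPM against 1.39 to 1.8 CPM. The epithelial list summed to 208 to 248 CPM with lipoprotein and 191 to 208 CPM unstimulated, with 6 members tested. The liver and serum list (681 to 1040 against 501 to 794 CPM) and the endothelial list (4.45 to 13.4 against 9.34 to 16.8 CPM) had 2 tested each. No member of these lists was called, beside 19.1% of all tested miRNAs, and so few cannot show an absence of change. miR-122-5p, the liver-defining miRNA, stood at 0.155 to 4.03 CPM with lipoprotein and at most 0.139 CPM unstimulated. The muscle and neural markers reached at most 1.41 and 1.64 CPM. The lymphocyte miRNA miR-150-5p was called higher and is given with the inflammatory miRNAs below.

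The miRNAs that carry the findings have these mature sequences in RefSeq (GRCm38.p6), given 5′ to 3′ with the seed in capitals. The first set holds risen and fallen miRNAs with large changes, the second the miR-181 family, whose members share seeds and moved apart.
miR-155-5p: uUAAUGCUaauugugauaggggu
miR-455-5p: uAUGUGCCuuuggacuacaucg
miR-455-3p: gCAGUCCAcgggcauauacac
miR-193b-3p: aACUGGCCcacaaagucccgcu
miR-210-3p: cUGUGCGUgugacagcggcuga
let-7e-5p: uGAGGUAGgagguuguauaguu
miR-99b-5p: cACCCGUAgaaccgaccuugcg
miR-125a-5p: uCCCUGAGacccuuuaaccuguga
miR-21a-5p: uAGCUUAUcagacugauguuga
miR-181a-5p: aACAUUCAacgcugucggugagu
miR-181b-5p: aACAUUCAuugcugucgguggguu
miR-181c-5p: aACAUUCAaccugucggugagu
miR-181d-5p: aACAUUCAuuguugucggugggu
miR-181a-1-3p: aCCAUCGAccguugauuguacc
miR-181c-3p: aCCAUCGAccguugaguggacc

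miR-155, which promotes inflammatory activation by repressing regulators such as Socs1 and Ship1, is the gene deleted in the knockout. Its hairpin lies on chromosome 16 (84714140 to 84714204, plus strand, GRCm38) in an exon of Mir155hg. Knockout macrophages held traces of miR-155-5p only, 45, 35 and 33 reads (5.89, 4.86 and 4.78 CPM) with oxLDL, eLDL and LDL and 37 reads (3.93 CPM) unstimulated. In wild-type macrophages miR-155-5p stood at 33150, 27240 and 26730 CPM with oxLDL, eLDL and LDL and at 5349 CPM unstimulated, a 5.43-fold higher mean with lipoprotein. All 3 lipoprotein libraries lay far above the unstimulated one. The fit over both genotypes gave 1.77 ± 0.37 (adjusted p = 0.00784). This value rests on the wild type: it was 0.34 and not called without the wild-type unstimulated library, and 2.3 without the knockout one. The passenger arm miR-155-3p had a count of 0 in each of the 4 knockout libraries. It stood at 160.5, 146.2 and 185 CPM with oxLDL, eLDL and LDL against 32.01 CPM unstimulated in wild-type cells (2.22 ± 0.27, adjusted p = 0.00175).

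**Figure D2:**
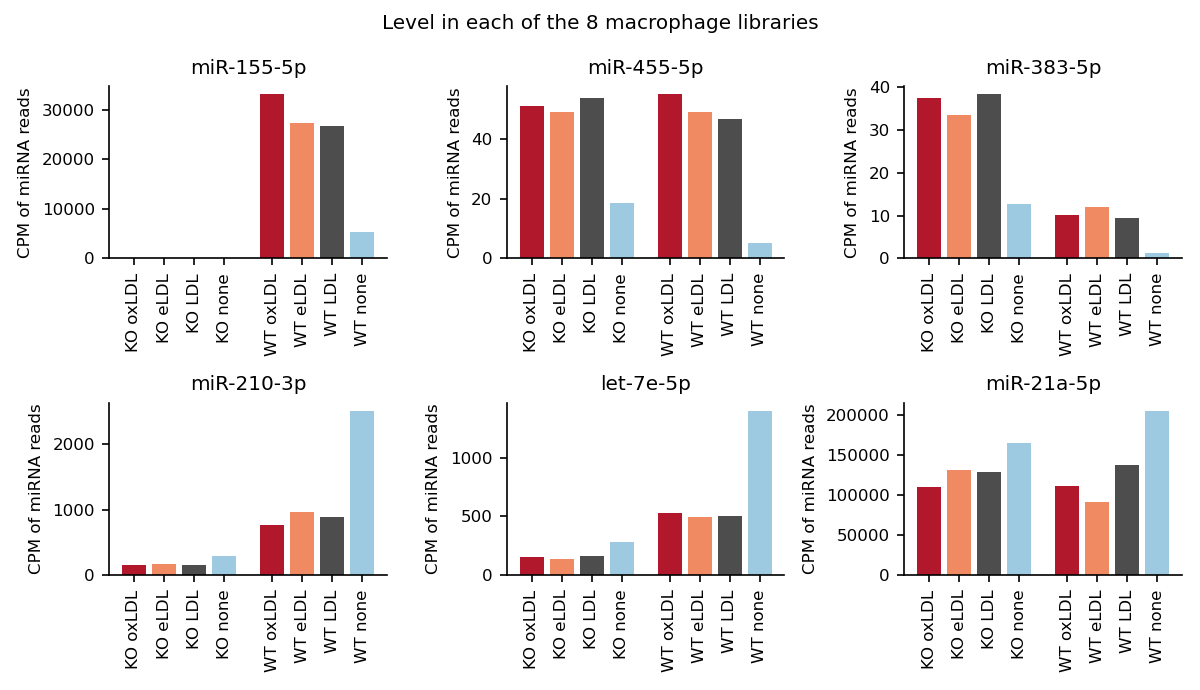
Bars give the CPM of 6 miRNAs in each of the 8 libraries (axes start at 0), in knockout (KO) and wild-type (WT) macrophages with oxLDL, eLDL, LDL or no stimulus (none). miR-155-5p, miR-455-5p and miR-383-5p are lowest in the unstimulated wild-type library among wild-type cells, and miR-210-3p, let-7e-5p and miR-21a-5p highest there.

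Both arms of miR-455, encoded in an intron of the collagen gene Col27a1 (chromosome 4, 63256851 to 63256932, plus strand) and best known from cartilage, rose by the same amount. miR-455-5p stood at 51.02, 49.19 and 53.71 CPM in knockout macrophages with oxLDL, eLDL and LDL, against 18.47 CPM unstimulated. Wild-type macrophages held 55.14, 49.26 and 46.94 CPM, against 5.01 CPM unstimulated. The 6 lipoprotein libraries were alike, and the unstimulated ones were below all of them and differed from each other. The change was 2.11 ± 0.34 (adjusted p = 0.00209) for miR-455-5p and 2.10 ± 0.40 (adjusted p = 0.00426) for miR-455-3p, and all 8 fits without 1 library called both arms. Both also differed between genotypes, as described below.

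miR-383-5p, from an intron of Sgcz, was rare. It stood at 37.54, 33.49 and 38.37 CPM in knockout macrophages with oxLDL, eLDL and LDL against 12.74 CPM unstimulated, and at 10.09, 11.97 and 9.507 CPM in wild-type macrophages against 1.253 CPM, where the unstimulated value rests on 9 reads. The rule that named it asked for 1 direction in all 6 pairs with an unstimulated library, as found for 43.2% of all tested miRNAs. The change of miR-383-5p was 1.90 ± 0.30 (adjusted p = 0.00175). miR-193b-3p, a neighbour of miR-365-1 on chromosome 16, stood at 56.9, 53.91 and 66.16 CPM against 27.18 CPM in knockout and at 49.62, 48.17 and 63.24 CPM against 12.8 CPM in wild-type macrophages (1.45 ± 0.24, adjusted p = 0.00209). The related miR-193a-3p, which shares its seed, had a change of 1.27 ± 0.45 that was not called (adjusted p = 0.0794). miR-187-3p, which human monocytes induce with IL-10, stood at 177, 187 and 173.4 CPM against 102 CPM in knockout macrophages. The wild-type libraries held 82.24, 100.2 and 67.74 CPM against 13.92 CPM (1.43 ± 0.32, adjusted p = 0.0098).

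Further miRNAs named for a large rise were miR-672-5p (1.27 ± 0.28), miR-365-2-5p (1.26 ± 0.25), miR-9-3p (1.21 ± 0.24), miR-149-5p (1.10 ± 0.20), miR-8114 (1.09 ± 0.19), miR-5107-3p (1.09 ± 0.22) and miR-677-5p (1.04 ± 0.21). They are encoded in varied places: miR-149 in an intron of Gpc1, miR-672 in one of Nexmif, miR-677 in one of Atp5b and miR-5107 within an exon of Cd74. Reads from the last can also come from the host transcript. miR-149-5p and miR-8114 were called in all 8 fits without 1 library. The call of miR-365-2-5p ended without the knockout unstimulated library (0.96), and those of miR-672-5p (1.04), miR-9-3p (0.90), miR-5107-3p (0.66) and miR-677-5p (0.67) without the wild-type one.

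**Figure D3:**
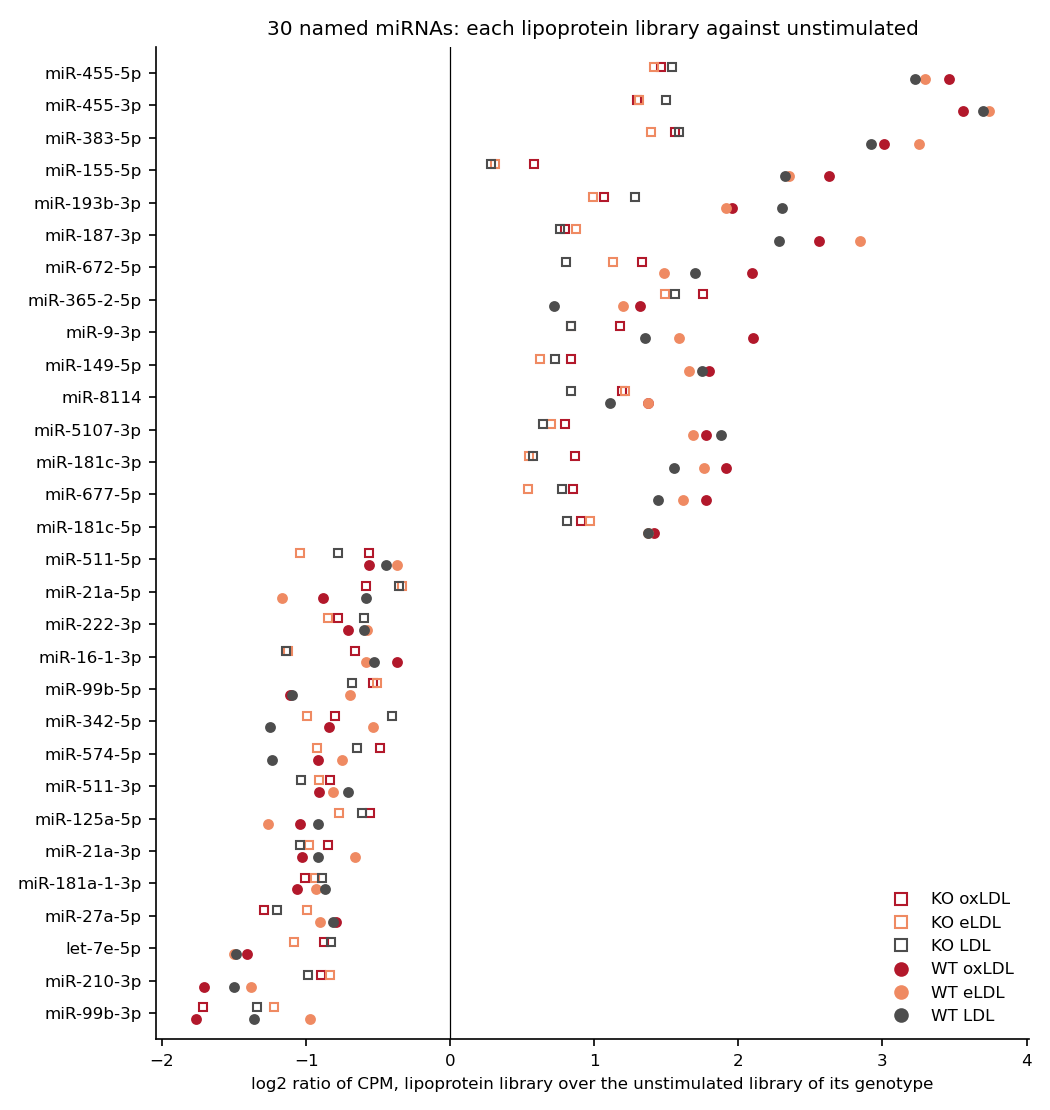
Each row is 1 of the 30 miRNAs named by rule, and each symbol is the log2 ratio of CPM in 1 lipoprotein library over the unstimulated library of its genotype (open squares KO, filled circles WT, colour by lipoprotein). For every row all 6 symbols lie on 1 side of 0, as the rule required, and for most of those that rose the wild-type symbols lie farther out.

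Members of the miR-181 family moved in opposite directions, and no difference between loci was tested. The family is best known for tuning T cell receptor signalling and is abundant in these macrophages. From the locus of miR-181c and miR-181d on chromosome 8 (miR-181c at 84178873 to 84178961, minus strand, in an intron of Nanos3), all 3 arms rose. miR-181c-5p stood at 899.7, 938.3 and 839.4 CPM with oxLDL, eLDL and LDL against 479.5 CPM unstimulated in knockout macrophages. Wild-type cells had 369.6, 359.4 and 359.1 CPM against 138.9 CPM. The lipoprotein libraries lay above the unstimulated one in each genotype, as the naming rule required. The change was 1.03 ± 0.11 (adjusted p = 0.000248). miR-181c-3p rose by 1.06 ± 0.22 (adjusted p = 0.00658) and miR-181d-5p by 0.88 ± 0.17 (adjusted p = 0.00426). The call of miR-181c-3p ended without the wild-type unstimulated library (0.61).

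From the locus on chromosome 1 (miR-181a-1 at 137966455 to 137966541, plus strand), the passenger arms fell. miR-181a-1-3p stood at 740.5, 776.4 and 804.1 CPM with oxLDL, eLDL and LDL against 1491 CPM unstimulated in knockout macrophages. Levels in wild-type macrophages were 822, 901.9 and 938.7 CPM against 1717 CPM. Here the genotypes were close, with ratios of lipoprotein over unstimulated of 0.519 in knockout and 0.517 in wild-type cells (change −1.04 ± 0.09, adjusted p = 9.24e-05). Its neighbour miR-181b-1-3p, at 2.207 to 3.729 CPM with lipoprotein against 6.901 CPM in the knockout and 19.21 CPM in the wild-type unstimulated library, fell by 2.22 (SE 0.40, adjusted p = 0.00309). It is too rare for the rule on named miRNAs and is given as a member of the family. The third passenger arm, miR-181a-2-3p from chromosome 2, had −0.74 ± 0.24 and missed the threshold (adjusted p = 0.053).

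The guide arms that chromosomes 1 and 2 share moved little. miR-181a-5p, the third most abundant miRNA, stood at 89790, 91630 and 94510 CPM against 73890 CPM in knockout and at 67450, 81510 and 73870 CPM against 55550 CPM in wild-type macrophages (0.27 ± 0.08, adjusted p = 0.0429). Only 1 of the 8 fits without 1 library kept that call. miR-181b-5p fell by 0.34 (SE 0.08, adjusted p = 0.0164), a call lost without either unstimulated library (−0.32 without the wild-type and −0.35 without the knockout one). miR-181d-5p differs from miR-181b-5p at 1 base over their shared length, so misread copies of the more abundant miR-181b-5p, which fell, may be among its reads. Of 8 family members tested, 4 rose, 3 fell and 1 was not called, beside 12.6% called higher and 6.47% lower of all tested miRNAs. The family median was −0.03, beside 0.07 for all tested miRNAs. The seed ACAUUCA is shared by all 4 guide arms printed above, and CCAUCGA by miR-181a-1-3p, which fell, and miR-181c-3p, which rose.

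**Figure D4:**
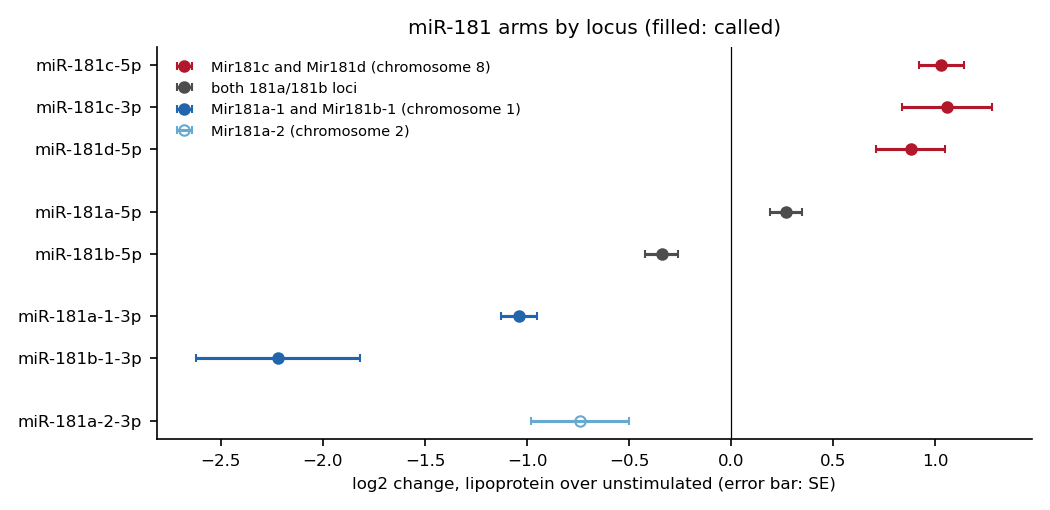
Log2 change with lipoprotein (points) and its standard error (bars) for the 8 miR-181 arms, coloured by the locus they come from. The 3 arms from chromosome 8 lie near 1, the passenger arms from chromosome 1 at −1.04 and −2.22, and miR-181a-2-3p (open symbol) was not called.

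The cluster of miR-99b, let-7e and miR-125a on chromosome 17, within Spaca6, fell together. It is known to be induced in myeloid cells by several inflammatory and differentiation signals. Of its 6 arms 5 were tested. Of these 4 fell, beside 6.47% called lower of all tested miRNAs, and miR-125a-3p, at −1.03 ± 0.46, was not called (adjusted p = 0.154). let-7e-5p stood at 154.8, 133.5 and 160 CPM with oxLDL, eLDL and LDL against 283.6 CPM unstimulated in knockout macrophages. The wild-type values were 525.6, 495.6 and 500.1 CPM against 1399 CPM. The lipoprotein libraries lay below the unstimulated one in each genotype, as the naming rule required. Wild-type cells with lipoprotein stayed above knockout cells without. The change was −1.31 ± 0.13 (adjusted p = 0.000186). miR-99b-5p stood at 1531, 1561 and 1378 CPM against 2215 CPM in knockout and at 4031, 5371 and 4055 CPM against 8693 CPM in wild-type macrophages (−0.87 ± 0.12, adjusted p = 0.000804). miR-99b-3p fell by 1.47 (SE 0.20, adjusted p = 0.000756) and miR-125a-5p by 0.96 (SE 0.14, adjusted p = 0.00109). All 4 were called in every fit without 1 library.

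The paralogous cluster of miR-99a, let-7c and miR-125b held no called member among 3 tested (median −0.1), beside 19.1% called of all tested miRNAs. Of the 9 let-7 family members tested, which share the seed GAGGUAG, only let-7e-5p was called, beside 6.47% called lower of all tested miRNAs, and the family median was −0.03. let-7a-5p, which differs from let-7e-5p at 1 base, stood at 19660 to 35020 CPM with lipoprotein and at 22550 and 30340 CPM unstimulated (−0.11 ± 0.20, adjusted p = 0.757), so misread copies of it may be among the reads of let-7e-5p. let-7f-5p and let-7i-5p, both among the 10 most abundant miRNAs, had 0.06 ± 0.14 and −0.19 ± 0.09 and were not called.

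miR-210-3p, the canonical target of hypoxia-inducible factor among miRNAs, stood at 156.7, 164 and 147.8 CPM with oxLDL, eLDL and LDL against 292.4 CPM unstimulated in knockout macrophages. In wild-type macrophages it stood at 768, 962.7 and 887 CPM against 2513 CPM. The wild-type level was higher throughout, and lipoprotein libraries lay below the unstimulated one in both genotypes, as the naming rule required (−1.34 ± 0.14, adjusted p = 0.000186). Between 43.7% and 50.3% of its reads with lipoprotein, against 44.3% and 45.8% unstimulated, carried an untemplated U at the 3′ end and were not counted. With 1 untemplated base allowed, a setting chosen after the data were seen, the change was −1.26. Its other arm, miR-210-5p, had −0.58 ± 0.48 and was not called (adjusted p = 0.449).

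miR-21a-5p, the second most abundant miRNA here and a repressor of Pdcd4, stood at 110600, 131600 and 129600 CPM with oxLDL, eLDL and LDL against 165600 CPM in knockout macrophages. In wild-type macrophages it stood at 111400, 91610 and 137200 CPM against 205900 CPM. It thus took 9.16% of the miRNA reads of the wild-type eLDL library, against 20.6% of the unstimulated one. The change was −0.74 ± 0.17 (adjusted p = 0.00943), and −0.47 and not called without the wild-type unstimulated library. Its passenger miR-21a-3p fell by 1.01 (SE 0.09, adjusted p = 9.24e-05) and was called in all 8 such fits. The most abundant miRNA, miR-146b-5p, did not pass the test: it stood at 252100 to 266600 CPM with lipoprotein and at 267500 CPM in knockout and 235600 CPM in wild-type unstimulated macrophages (−0.06 ± 0.07, adjusted p = 0.641). Its relative miR-146a-5p shares the seed GAGAACU and damps Traf6 and Irak1 signalling. The sequences differ at 2 bases, so misread copies of miR-146b-5p may be among the reads of miR-146a-5p. miR-146a-5p stood at 1714, 1610 and 1589 CPM against 1049 CPM in knockout macrophages and at 899.2, 1032 and 830.2 CPM against 452.5 CPM in wild-type macrophages (0.73 ± 0.10, adjusted p = 0.000887).

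Other miRNAs named for a fall include several less abundant arms. miR-27a-5p, the passenger of the miR-23a, miR-27a and miR-24-2 cluster, stood at 90.65, 111.6 and 96.71 CPM against 222.4 CPM in knockout and at 109, 101 and 107.3 CPM against 189 CPM in wild-type macrophages. It fell by 1.10 (SE 0.12, adjusted p = 0.000248), while its guide miR-27a-3p had −0.17 ± 0.09 (adjusted p = 0.224). miR-16-1-3p fell by 0.83 (SE 0.14, adjusted p = 0.00258), beside −0.15 for miR-16-5p (adjusted p = 0.207), which has 2 source hairpins. Both arms of miR-511, encoded in an intron of the mannose receptor gene Mrc1, fell: miR-511-3p by 0.96 (SE 0.12, adjusted p = 0.000673) and miR-511-5p by 0.71 (SE 0.21, adjusted p = 0.0418), the second called in only 1 of the 8 fits without 1 library. miR-222-3p and miR-221-3p, neighbours on chromosome X that share the seed GCUACAU and repress p27Kip1, fell by 0.78 (SE 0.09, adjusted p = 0.000293) and by 0.47 (SE 0.08, adjusted p = 0.00243). miR-574-5p had −0.92 ± 0.16 and miR-342-5p −0.88 ± 0.20. Their calls ended when the unstimulated wild-type library was left out (−0.73 and −0.76).

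Where both arms of a hairpin could be tested and each arm had a single source, 87 hairpins in all, both arms were called for 8, and in all 8 they moved the same way. Those were the hairpins of miR-99b, miR-155, miR-21a, miR-181c, miR-212, miR-151, miR-455 and miR-511. For 23 hairpins 1 arm was called, and in 5 of these it was the less abundant arm. For 56 neither arm was called. These counts stand beside 19.1% called of all tested miRNAs, and whether the arms of a hairpin move together was not tested.

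Of 18 miRNAs known to be induced by inflammatory stimuli in macrophages, 17 were tested, 9 rose, 5 fell and 3 were not called, beside 12.6% called higher and 6.47% called lower of all tested miRNAs. The median was 0.48, beside 0.07 for all tested. The list so moved both ways: miR-155, miR-146a-5p, miR-147-3p, miR-132-3p, miR-212-3p, miR-9-5p, miR-187-3p and miR-34a-5p rose, while miR-21a, miR-221-3p, miR-222-3p and miR-210-3p fell. miR-132-3p, a CREB-induced miRNA, stood at 257, 261.8 and 240.5 CPM against 166.7 CPM in knockout macrophages. In wild-type macrophages it stood at 265.6, 355.2 and 258 CPM against 103.8 CPM (0.92 ± 0.19, adjusted p = 0.00566, and 0.54 and not called without the wild-type unstimulated library). The arms of miR-212 from the same cluster had 0.73 ± 0.19 and 0.76 ± 0.22. The p53 target miR-34a-5p rose by 0.76 (SE 0.12, adjusted p = 0.00209) and was called in all 8 fits without 1 library. miR-147-3p (0.28 ± 0.09) and miR-9-5p (0.57 ± 0.18) were at the threshold, with adjusted p of 0.0482 and 0.0498. miR-150-5p, a lymphocyte miRNA, stood at 167.7, 153.3 and 147.4 CPM against 97.57 CPM in knockout and at 156.5, 115.3 and 110.1 CPM against 63.46 CPM in wild-type macrophages (0.74 ± 0.16, adjusted p = 0.00916). It is the only lymphoid marker listed, and the part of lymphocytes in it was not tested.

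The miRNAs known to repress Abca1, and so cholesterol efflux, held 1 called member. Of 18 listed, 13 were tested, miR-26a-5p was called higher (0.28 ± 0.08, adjusted p = 0.0396, kept in 1 of 8 fits without 1 library), 12 were not called, and the median was 0.0. Over all tested miRNAs 12.6% were called higher and 6.47% lower. Among the 12 is miR-10b-5p, whose pooled change of 0.07 joins opposite ratios. Its level was 4.25-fold higher with lipoprotein in knockout and 0.533 of the unstimulated level in wild-type macrophages. Each ratio rests on 1 unstimulated library, and the knockout one (29.62 CPM) was the lowest of all 10 macrophage libraries. miR-33-5p, from an intron of Srebf2, stood at 33.49, 38.77 and 32.87 CPM with oxLDL, eLDL and LDL against 34.29 CPM in knockout macrophages. In wild-type macrophages it stood at 16.89, 27.19 and 19.95 CPM against 21.02 CPM, so that the groups overlapped (−0.07 ± 0.18, adjusted p = 0.821). miR-148a-3p, which also represses the LDL receptor, had 0.0 ± 0.10 (adjusted p = 0.994). Of 16 miRNAs linked to lipid uptake and metabolism, 13 were tested, miR-29a-3p, miR-181a-5p and miR-183-5p rose, miR-125a-5p, miR-27a-5p and miR-378a-3p fell, and 7 were not called (median 0.12), beside 12.6% higher and 6.47% lower of all tested. miR-29a-3p stood at 1366, 1290 and 1128 CPM against 732.3 CPM in knockout macrophages. In wild-type macrophages it stood at 987.4, 975.1 and 813.3 CPM against 416.6 CPM (0.87 ± 0.11, adjusted p = 0.000703). Its family members miR-29b-3p and miR-29c-3p, with the same seed, had 0.48 ± 0.18 and 0.11 ± 0.15 and were not called. miR-378a-3p, from an intron of the mitochondrial regulator Ppargc1b, fell by 0.64 (SE 0.12, adjusted p = 0.0045).

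The next lists held 1 or 2 called members each, to be read beside 12.6% called higher and 6.47% called lower of all tested miRNAs. Of the 8 myeloid miRNAs, all tested, only the arms of miR-511 were called, and the median was −0.18. The passenger and guide arms of miR-223 had −0.50 ± 0.16 and −0.30 ± 0.10 (adjusted p = 0.0507 and 0.053). In the clusters of miR-23, miR-27 and miR-24, miR-27a-5p and miR-27b-5p of 9 tested members fell (median −0.17). In the clusters related to miR-17-92, miR-17-5p of 16 tested members rose (0.32 ± 0.09, median of the list 0.14), and in the miR-15 and miR-16 family miR-16-1-3p of 10 fell (median −0.07). Of the miR-30 family, miR-30a-3p of 8 members rose (0.38 ± 0.12, median 0.07), and miR-183-5p rose among 3 tested members of its cluster with miR-96 and miR-182 (0.40 ± 0.12, median 0.4). The calls of miR-17-5p and miR-30a-3p were lost with upper-quartile scaling (0.14 and 0.20). Among abundant miRNAs, miR-10a-5p from the HoxB cluster fell by 0.49 (SE 0.07, adjusted p = 0.00126) and miR-191-5p rose by 0.56 (SE 0.09, adjusted p = 0.00258), both called in all 8 fits without 1 library. miR-92a-3p and miR-142a-5p had 0.36 ± 0.16 and 0.24 ± 0.08 and were not called.

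Each lipoprotein was also set against the unstimulated libraries on its own, in 1 fit with 4 stimulus states. oxLDL called 34 miRNAs higher and 19 lower (15.6% of 340), eLDL 13 higher and 15 lower (8.24%) and LDL 15 higher and 14 lower (8.53%). These 3 comparisons share the unstimulated libraries, and the fit has 3 residual degrees of freedom. Without 1 library the oxLDL count was 0 (without wild-type oxLDL), 9 (knockout oxLDL), 15 (knockout LDL) or 17 (wild-type LDL), and at most 70 (knockout unstimulated). The eLDL count was 0 without wild-type oxLDL or eLDL or knockout eLDL, 12 without wild-type LDL, 14 without knockout LDL and 68 without the knockout unstimulated library. The LDL count was 0 without wild-type oxLDL or LDL or knockout LDL, 18 without knockout oxLDL and 70 without the knockout unstimulated library. All 65 miRNAs of the pooled comparison had 1 sign in the 3. For oxLDL, eLDL and LDL the changes were 1.95, 1.62 and 1.68 for miR-155-5p, 2.18, 2.02 and 2.12 for miR-455-5p, −1.42, −1.27 and −1.33 for miR-210-3p, and −1.26, −1.44 and −1.23 for let-7e-5p. A test of any difference among the 3 lipoproteins called 0 of 340 miRNAs (0.0%, edgeR, lowest adjusted p 0.824), with 18 at an unadjusted p under 0.05, and 6 were called when either unstimulated library was left out. This does not show that the lipoproteins act alike. The 95% interval of the difference oxLDL minus LDL ran from −0.71 to 1.24 for miR-155-5p, from −0.94 to 1.06 for miR-455-5p, from −0.57 to 0.38 for miR-210-3p and from −0.32 to 0.38 for miR-181c-5p. Of the 90 differences between 2 lipoproteins over the 30 named miRNAs, the median size was 0.14 and the largest, −0.62 for miR-99b-3p (oxLDL minus eLDL), had an interval of −1.03 to −0.22. The intervals are not adjusted for their number, and 3 of the 90 did not hold 0.

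A difference between genotypes in the lipoprotein change was tested as an interaction, the change in knockout minus the change in wild-type macrophages. Its spread came from the lipoprotein libraries only (4 residual degrees of freedom), and each unstimulated library was assumed to vary like those. The interaction cannot tell dependence on miR-155 from any other difference between the cultures of each genotype. It called 8 miRNAs (2.35% of 340), 3 with a more positive and 5 with a more negative change in the knockout. miR-155-5p itself (−1.96 ± 0.31, adjusted p = 0.0037) is at trace level in the knockout and is no test of dependence. Both arms of miR-455 rose less in the knockout, miR-455-3p by −2.21 ± 0.34 (adjusted p = 0.00347) and miR-455-5p by −1.78 ± 0.33 (adjusted p = 0.00987). miR-455-3p stood at 55.33, 55.72 and 63.56 CPM with oxLDL, eLDL and LDL against 22.51 CPM unstimulated in knockout macrophages, and at 42.58, 48.33 and 47.03 CPM against 3.619 CPM in wild-type macrophages. The genotypes thus lay close with lipoprotein and apart without it, and the difference rests on the single unstimulated library of each genotype. miR-187-3p (−1.68 ± 0.29, adjusted p = 0.00636) and miR-9-5p (−0.87 ± 0.20, adjusted p = 0.0415) had a smaller change in the knockout too, but were higher in knockout than in wild-type macrophages both with lipoprotein and without. miR-9-5p stood at 18420, 17260 and 17730 CPM with oxLDL, eLDL and LDL against 15290 CPM unstimulated in knockout macrophages, and at 12980, 10760 and 10580 CPM against 5080 CPM in wild-type macrophages.

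In the other direction, miR-184-3p stood at 295, 262.2 and 252.6 CPM against 220.1 CPM in knockout and at 95.84, 108.9 and 107 CPM against 220.7 CPM in wild-type macrophages. The unstimulated libraries were level and the lipoprotein libraries moved apart (1.46 ± 0.21, adjusted p = 0.00345). miR-10b-5p stood at 126.2, 136.9 and 114.2 CPM against 29.62 CPM in knockout and at 163.6, 118.7 and 113 CPM against 247.3 CPM in wild-type macrophages (3.07 ± 0.32, adjusted p = 0.000246). With LPS miR-10b-5p stood at 211.4 CPM in knockout and 188.1 CPM in wild-type macrophages, so the knockout unstimulated library was the lowest of all 10. miR-10b-5p differs at 1 base from miR-10a-5p, at 26830 to 82190 CPM, so misread copies of miR-10a-5p may be among its reads. let-7d-5p had 0.81 ± 0.19 (adjusted p = 0.0449) and kept its call in 2 of the 6 fits without 1 lipoprotein library. The count was 13 without the wild-type oxLDL library. The unstimulated libraries cannot be left out of this test, as each genotype has 1.

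The same stimuli in dendritic cells were compared in 1 fit of 16 libraries. The change differed between the cell types for 31 of 373 miRNAs (8.31%), 14 with a more positive and 17 with a more negative change in macrophages, and for 16 without the wild-type unstimulated macrophage library. Cell type cannot be told apart here from whatever gave the libraries their unlike shares of undetermined bases, nor from any difference in dose or time. Of the cluster that fell in macrophages, let-7e-5p stood at 5340 to 9782 CPM in dendritic cells with lipoprotein against 3927 and 5550 CPM unstimulated, a change of 0.68 ± 0.24 that was not called (adjusted p = 0.27). The difference, macrophages minus dendritic cells, was −2.02 ± 0.34 (adjusted p = 0.00114) for let-7e-5p, −1.99 ± 0.26 (adjusted p = 0.000171) for miR-99b-3p and −1.79 ± 0.27 (adjusted p = 0.00051) for miR-125a-5p. For miR-125a-3p it was −1.65 ± 0.45 (adjusted p = 0.0349), and for miR-21a-3p −1.65 ± 0.28 (adjusted p = 0.00118). miR-99b-5p was called higher with lipoprotein in dendritic cells (0.65 ± 0.14, adjusted p = 0.0384). miR-181c-5p stood at 25.87 to 60.12 CPM with lipoprotein and at 56.31 and 58.86 CPM unstimulated in dendritic cells, and its difference was 1.41 ± 0.25 (adjusted p = 0.0014). miR-676-3p, at 9.145 to 17.38 CPM against 23.6 and 26.1 CPM in dendritic cells, differed by 1.46 ± 0.37 (adjusted p = 0.0222). The change of miR-155-5p was 1.75 ± 0.38 in dendritic cells (adjusted p = 0.0384), and its difference of −0.12 was not called (adjusted p = 0.921). Both fits include knockout traces. In wild-type cells alone the mean with lipoprotein was 5.43-fold the unstimulated level in macrophages (29040 against 5349 CPM) and 3.14-fold in dendritic cells (406.6 against 129.3 CPM), a gap that was not tested.

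**Figure D5:**
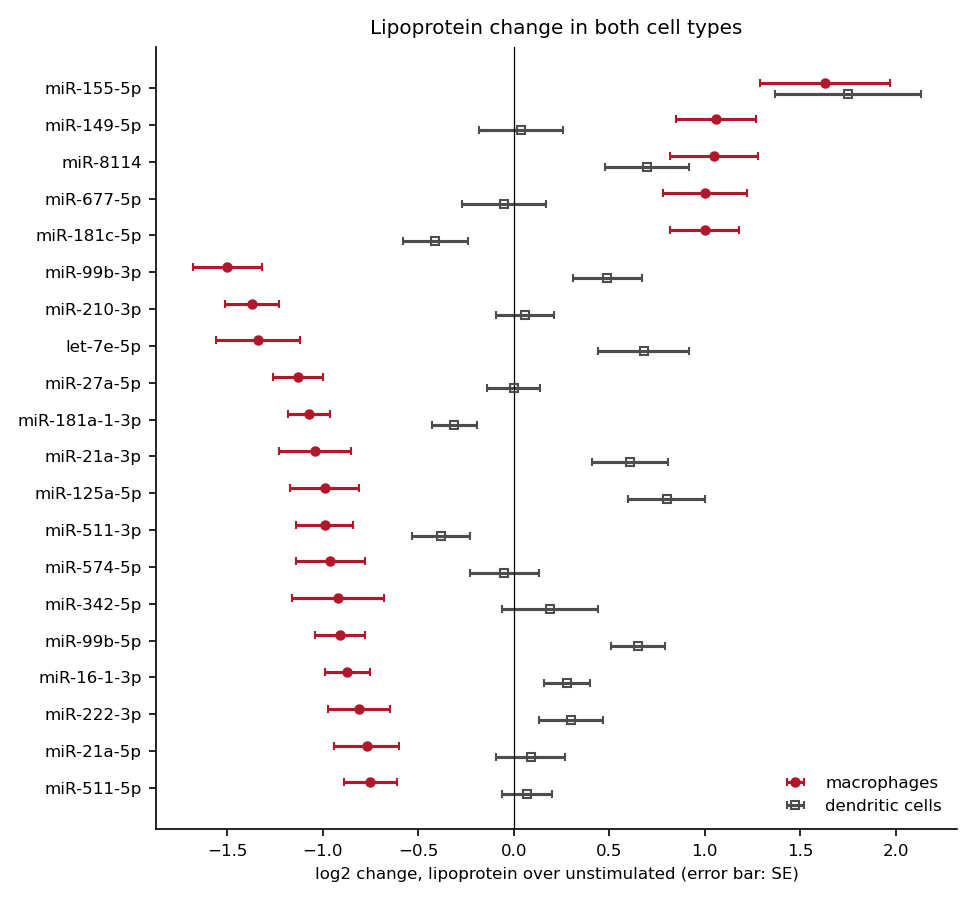
Fitted log2 change with lipoprotein in macrophages (filled circles) and dendritic cells (open squares), with standard errors, from the 16-library fit, for the 20 named miRNAs with a mean of at least 5 CPM in dendritic cells. miR-155-5p lies above 0 in both, while the arms of miR-99b, let-7e-5p and miR-125a-5p lie below 0 in macrophages and above 0 in dendritic cells.

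Lipoproteins were also set against LPS in a fit of all 10 macrophage libraries. The unstimulated libraries entered its scaling and spread but not the contrast itself. It called 54 of 345 miRNAs (15.7%), 22 higher and 32 lower with lipoprotein. Of the 65 called against unstimulated, 18 were among these, and the rest were not told apart from LPS by this test. miR-210-3p was lower with lipoprotein than with LPS (−1.25 ± 0.24, adjusted p = 0.00455), mostly in wild-type macrophages. Knockout libraries held 147.8 to 164 CPM with lipoprotein and 191.1 CPM with LPS. Wild-type libraries held 768 to 962.7 CPM with lipoprotein and 2988 CPM with LPS. miR-210-5p (−2.28 ± 0.49), miR-129-5p (−2.30 ± 0.36), miR-92b-3p (−1.85 ± 0.40) and miR-1948-3p (−1.68 ± 0.21) were lower too. miR-6539-5p (2.57 ± 0.46), miR-135a-1-3p (2.46 ± 0.27), miR-33-5p (1.11 ± 0.21), miR-345-3p (1.10 ± 0.26) and miR-16-1-3p (1.08 ± 0.19) were higher. miR-33-5p, not called against unstimulated cells, stood at 13.63 CPM in knockout and 9.783 CPM in wild-type macrophages with LPS. miR-147-3p, an LPS-induced miRNA, stood at 562.8, 590 and 561 CPM with oxLDL, eLDL and LDL against 1158 CPM with LPS in knockout macrophages, and at 850, 940.1 and 937.7 CPM against 1898 CPM in wild-type macrophages (−1.17, adjusted p = 1.09e-05). miR-155-5p, at 39830 CPM in wild-type macrophages with LPS, had −0.40 and was not called (adjusted p = 0.422), and miR-455-5p and let-7e-5p had −0.62 and −0.22, also not called.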

How the data were processed

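The deposited files give, per the labels, the authors' raw read counts of each distinct sequence, 18 to 45 nt long. The submitters' processing notes list CASAVA 1.8.2 with no role, and the trimming tool is not stated. Sequences of 18 to 26 nt were matched exactly to 1174 hairpins of GENCODE M21 (GRCm38). Hairpins with 2 annotated mature arms were split midway between them, and the others at the loop that RNAfold 2.7.2 gave. Reads had to begin within 2 nt of an arm's main start. Sequences shared between arms were split equally, and 1225 miRNAs were detected. edgeR 4.0.16 (R 4.3.3) fitted their counts after TMM scaling, with a robust quasi-likelihood F test, genotype as a block and Benjamini-Hochberg adjustment at 0.05. An SE is the absolute log2 change over the root of F. Alternatives were DESeq2 1.42.0, other scalings, filters and read assignments, and leaving out each library. The scripts were tested on simulated data.

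The text names miR-155, the 15 strongest called changes each way (at least 50 counts on average, 1 direction in all 6 matched pairs), members of the lists, the 10 most abundant miRNAs, up to 5 each way in the other contrasts, and partner arms. miR-193a-3p was added after its values were seen, as a seed relative. The members and lists were chosen with earlier results of these data known.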

Additional observations from a re-analysis of the deposited data

Results flagged for a closer look

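Lipoprotein changes that differed between genotypes, by the test of that difference itself (log2, knockout change minus wild-type change), were miR-10b-5p with 3.07, miR-184-3p with 1.46, let-7d-5p with 0.81, miR-9-5p with −0.87, miR-187-3p with −1.68, miR-455-5p with −1.78, miR-155-5p with −1.96 and miR-455-3p with −2.21. Each uses 1 unstimulated library per genotype, and those of miR-9-5p and let-7d-5p kept their call in 4 and 2 of the 6 fits without 1 lipoprotein library.

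Changes that differed between cell types, by the same kind of test (log2, macrophages minus dendritic cells), were miR-383-5p with 6.09, miR-181c-3p with 1.96, miR-672-5p with 1.88, miR-676-3p with 1.46, miR-181c-5p with 1.41, miR-125a-3p with −1.65, miR-21a-3p with −1.65, miR-125a-5p with −1.79, miR-99b-3p with −1.99 and let-7e-5p with −2.02. miR-383-5p had reads in only 1 of the 8 dendritic cell libraries of that fit (0.599 CPM, knockout unstimulated), so its value depends on the fit and is no measured ratio. In those 8 libraries miR-672-5p stood at 0.5739 to 2.276 CPM and miR-181c-3p at 0.4514 to 5.739 CPM. A count of 3 was 0.283 to 0.592 CPM in dendritic cell libraries, so these differences rest on few dendritic cell reads. The difference of miR-672-5p kept its call in 3 of 8 fits without 1 macrophage library. No library was flagged as far from the other lipoprotein libraries among the 39 miRNAs that were named by rule or most abundant. Outside that set, miR-6539-5p stood at 38.54 CPM in wild-type macrophages with eLDL, against 16.19 CPM with oxLDL and 23 CPM with LDL.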

How the results depend on the processing

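The count of 65 called miRNAs was 10 without the genotype block, the one pairing these libraries have, and 33 to 62 without 1 library. Under the other settings it was 50 to 73. Without 1 library, the calls ran from 0 to 70 for oxLDL, 0 to 68 for eLDL, 0 to 70 for LDL, 0 to 6 for the difference among lipoproteins, 6 to 13 for the genotype difference, 16 to 37 for the cell type difference and 47 to 67 against LPS. A fit that leaves a group with 1 library assumes that it varies like the others. eLDL had 47 calls with total miRNA reads and 53 with no filter on low counts. With no filter LDL had 49 and the genotype difference 20. The change of miR-10b-5p, 0.07 and not called, was −1.04 without the knockout and 2.03 without the wild-type unstimulated library. miR-155-3p gave no value without the wild-type unstimulated library, since knockouts have no reads. The causes were not tested. The limits are 1 library per condition, unstimulated levels that rest on 1 library per genotype, and CPM that sum to a fixed total, so that the most abundant miRNAs bear on the rest.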
